A study of Mus musculus with 4 samples.

Results

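H3K27ac, an acetyl mark on histone H3 found where promoters and enhancers are active, was mapped with CUT&Tag in liver of mice, and its distribution was followed over the genes of the MAP kinase cascade and the dual-specificity phosphatases. The genes were chosen by name among those assigned at least 1 region in either deposited region table. Taken was every such gene whose symbol begins with Mapk plus a digit, Map2k, Map3k, Map4k, Mapkapk, or Dusp plus a digit. A gene could thus enter through a region of a single group. This gave 43 of the 10925 gene names with a listed transcription start site (TSS), and all 43 are protein-coding. They comprise 28 cascade kinases, 2 scaffold or interacting proteins, 8 MAP kinase phosphatases and 5 other dual-specificity phosphatases. A further 33 protein-coding RefSeq symbols of the same form, Dusp9 and Dusp16 among them, were named by no row and were not analysed here.

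The regenerating livers came from wild-type C57/BL6J mice 12 h after surgical removal of 70% of the liver (partial hepatectomy, PHx), with 2 libraries. The comparison group was sham-operated mice of the same strain, also with 2 libraries. The labels give no age, and nothing says whether the libraries of a group came from separate animals. The sham libraries carry no time in the labels, and the design text speaks of 0 h, so hours since surgery cannot be told apart from hepatectomy. The authors deposited 1 merged region table per group without signal values. Depth is unknown, each group is 1 list, and no value below has a replicate error or a p-value.

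A MAP kinase cascade is a relay of kinases. MAP4 and MAP3 kinases pass receptor and stress signals to MAP2 kinases, which phosphorylate the MAP kinases ERK, JNK and p38 on a threonine and a tyrosine of their activation loop. MAP kinase phosphatases, a branch of the dual-specificity (Dusp) family, remove both phosphates, and many of their genes are themselves switched on by the pathway, which makes them feedback inhibitors. In the liver, growth factor receptors feed the ERK arm and cytokines and stress feed the JNK and p38 arms, and all of these are known to be active in the hours after hepatectomy.

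The PHx table held 10170 regions with a median width of 14551 bp, and that of sham held 11602 regions with a median width of 8153 bp. The highest peak numbers used in a listed region were 12096 and 14957 in PHx libraries 1 and 2, and 17405 and 17476 in sham libraries 1 and 2. Among hepatocyte markers with a listed TSS, 5 of 6 had a promoter region in both groups and Cps1, the entry enzyme of the urea cycle, had it after PHx alone. Sham regions still covered 3272 bp within 10 kb of the Cps1 TSS. Of 6 markers of sinusoidal endothelium with a listed TSS, 5 had a promoter region after PHx, between 10366 and 38368 bp wide, and 0 of 6 had one in sham. Of all protein-coding genes with a listed TSS, 81.4% had one after PHx and 75.8% in sham. A gene has a listed TSS only if a region of either group was assigned to it. Markers with a promoter region in PHx alone could enter through that region, so this contrast is no separate result. Within 10 kb of the TSS sham regions covered 8703 bp at Lyve1 and 0 bp at the other endothelial markers. Kupffer cell markers numbered 3 with a TSS (1 in PHx alone, 2 in both groups), stellate cell markers 2 (1 in PHx alone, 1 in both) and cholangiocyte markers 1 (in both). Those in PHx alone, Csf1r and Colec11, had 8670 and 2562 bp covered in sham within 10 kb of the TSS. No leukocyte marker had a listed TSS. In bulk tissue, more cells of a type and more marked chromatin per cell cannot be told apart, and the part of cell composition in the values below was not tested.

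Most cascade and phosphatase promoters carried the mark in both groups. A gene was taken as marked when a region overlapped its TSS ± 1 kb. Of the 43 genes, 4 were marked in PHx only (Dusp5, Dusp8, Map3k6 and Mapkapk5), 2 in sham only (Map3k10 among them), 33 in both groups and 4 in neither (Map2k6, Map3k20, Map4k4 and Dusp14). The background, taken over the 7089 protein-coding genes that have a TSS in the tables, was 15.4% for PHx only, 9.78% for sham only, 66.0% for both and 8.79% for neither. The share of members in PHx only was 9.30% and in sham only 4.65%, against 76.7% in both. All 6 genes marked in a single group lay in a stretch where at least 1 library of the other group had peak numbers outside any listed region, so absence from a merged list does not show absence from every library. Of all protein-coding genes in PHx only, 10.2% lay in stretches free of such numbers, and of those in sham only 14.4%.

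**Figure D1:**
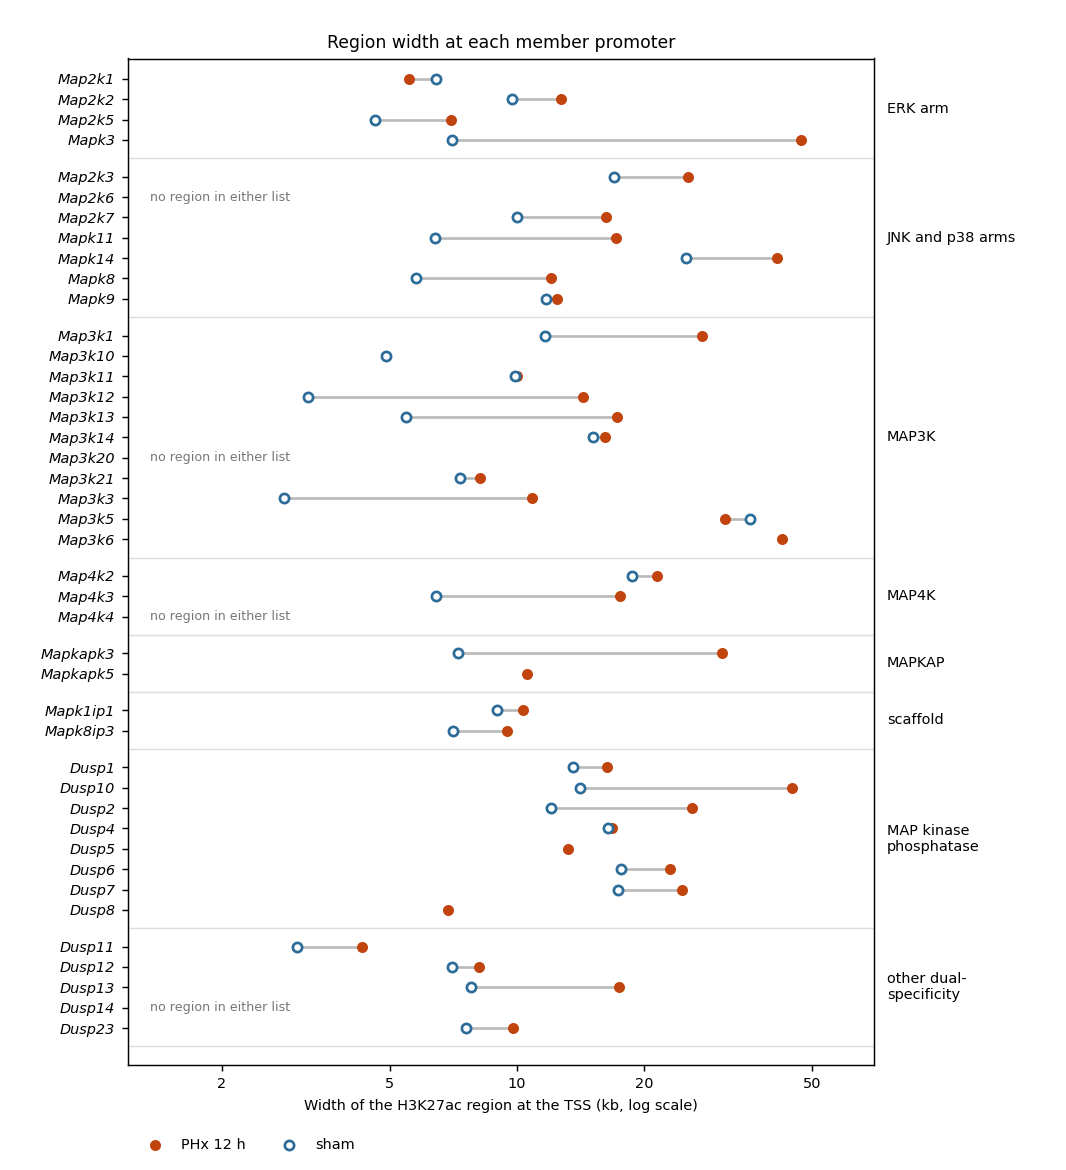
Width of the H3K27ac region at the TSS of the 43 genes, of which 1 is not shown (x axis, kb, log scale), grouped by role down the page; filled points are PHx 12 h and open points sham, joined where both exist. Most filled points lie to the right of their open partner, while Map2k1 and Map3k5 lie to the left, and 5 genes have a point of a single kind.

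In the ERK arm the region at Mapk3 differed most in width and those at the MEK genes differed little. Mapk3, which encodes ERK1, lay in a PHx region of 46964 bp, against a sham region of 7000 bp. That PHx region also covered the listed TSSs of Gdpd3, Tbx6, Ppp4c and Aldoa and overlapped 5 sham regions of 33427 bp in sum, so its ratio of 6.71 became 1.40 against the joined length. Its upstream edge was 2420 bp from the Mapk3 TSS after PHx and 1842 bp in sham, so the added length lay downstream, over the neighbouring genes.

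Map2k1, the gene of the ERK activator MEK1, was among the few with a narrower region after PHx, 5536 bp against 6430 bp in sham (ratio 0.861). A ratio at least this high was found at 96.0% of all protein-coding genes marked in both groups. Map2k2, which encodes MEK2, had 12709 bp after PHx and 9708 bp in sham. Map2k5, the activator of ERK5, had 6988 bp after PHx and 4617 bp in sham. The MEK genes were thus marked throughout, with ratios from 0.861 to 1.51.

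The JNK and p38 kinases were marked in both groups and were wider after PHx. Mapk8, which encodes JNK1, had a region of 12029 bp after PHx and 5766 bp in sham, a ratio of 2.09. Mapk9, which encodes JNK2, had 12445 bp after PHx and 11711 bp in sham, so the JNK genes ended at similar widths after PHx although that of Mapk8 was the narrower in sham. Mapk14, the gene of p38 alpha, had the widest region of this arm in both groups, with 41177 bp after PHx and 25074 bp in sham. It overlapped 2 sham regions, against which the ratio was 1.34, and its sham region was made of 3 peaks of library 1 and 2 of library 2, where PHx had 1 peak per library. Mapk11, the gene of p38 beta, had 17140 bp after PHx and 6399 bp in sham (ratio 2.68), with 8985 bp of the gain downstream of the TSS and 1756 bp upstream.

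Of their activators, Map2k3, which acts on p38, had 25363 bp after PHx and 16926 bp in sham. Map2k7, which acts on JNK, lay in a PHx region of 16215 bp assigned to its neighbour Lrrc8e, against its own sham region of 10015 bp. Map2k6, the other p38 activator, had no promoter region in either group. Its closest sham region (3397 bp, intergenic) lay 17386 bp upstream and shared no base with a PHx region. The 6 marked genes of these arms had ratios from 1.06 to 2.68 with a median of 1.63.

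The MAP3 kinases differed widely among themselves. Map3k12 (DLK) had 14297 bp after PHx and 3208 bp in sham, a ratio of 4.46 that 10.3% of protein-coding genes reached. Map3k3 (MEKK3) had 10850 bp after PHx and 2816 bp in sham, a ratio of 3.85. Both sham regions were among the narrowest 1% of their table, at the 0.95th and 0.32nd percentile, and each was matched 1 to 1 by its PHx region. Map3k13 (LZK) had 17224 bp after PHx and 5454 bp in sham, but its PHx region also took in a second sham region 9125 bp upstream, and the ratio to the joined length was 1.88. The listed start of Map3k13 lay 66796 bp from its RefSeq start, and only the listed start was assessed.

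Other MAP3 kinases barely differed. Map3k11 (MLK3) had 9980 bp after PHx and 9864 bp in sham, and Map3k14 (NIK, the kinase of the non-canonical NF-kB route) had 16110 bp after PHx and 15127 bp in sham. Map3k21 had 8176 bp after PHx and 7330 bp in sham. Map3k5, the gene of the stress kinase ASK1, was narrower after PHx, with 31040 bp against 35563 bp in sham, where it was wider than 98.4% of regions. The edge downstream of its TSS stood 28242 bp away after PHx and 32883 bp in sham, while the upstream edge moved by 118 bp. Within 10 kb of the TSS the gene had 12798 covered bp after PHx and 12680 bp in sham, so the difference lay farther inside the gene.

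Map3k6 and Map3k10 were each marked in a single group. Each had a listed TSS only because that promoter region was assigned to it, so its marking there is no separate result. Map3k6, the gene of the ASK1 relative ASK2, lay at the start of a PHx region of 42465 bp (chromosome 4, 132965293 to 133007757) that also covered the TSSs of Sytl1 and Tmem222. Inside that region the sham table had 3 regions of 16694 bp in sum, assigned to Sytl1 and Tmem222, of which the nearest lay 14491 bp from the Map3k6 TSS. Map3k10 (MLK2) had a sham region of 4885 bp (chromosome 7, 27370897 to 27375781), and the nearest PHx region lay 60700 bp away. In that stretch PHx library 2 had 1 unlisted peak number and library 1 had 0.

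Among the MAP4 kinases, Map4k3 had a region of 17489 bp after PHx and 6435 bp in sham (ratio 2.72), with 10332 bp of the gain downstream. Map4k2 had 21386 bp after PHx and 18757 bp in sham. Map4k4 had no promoter region in either group. Of the MAP kinase-activated protein kinases, Mapkapk5 was marked in PHx only, by a region of 10557 bp (chromosome 5, 121678060 to 121688616), with the nearest sham region 17171 bp from its TSS. Mapkapk3, a target of p38, lay in a PHx region of 30496 bp assigned to Cish, the gene of a STAT5-induced inhibitor of cytokine signalling, against a sham region of 7237 bp. That PHx region joined 2 sham regions, and against their sum the ratio was 1.17 in place of 4.21. The scaffold gene Mapk8ip3 (JIP3) had 9483 bp after PHx and 7071 bp in sham, and Mapk1ip1 had 10354 bp after PHx and 8985 bp in sham.

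All 8 MAP kinase phosphatases with a listed TSS were marked after PHx, and 6 of the 8 in sham, beside 81.4% of protein-coding genes after PHx and 75.8% in sham. The genes in PHx only were Dusp5, whose product is a nuclear phosphatase for ERK, and Dusp8, whose product acts on JNK and p38. Both had a listed TSS only because their PHx promoter regions were assigned to them. Their marking after PHx was thus set by their entry and is no separate result. The shares over all genes rest on the same entry rule. Dusp9 and Dusp16, to which no region was assigned, are not among the 8. The Dusp5 region measured 13177 bp (chromosome 19, 53514988 to 53528164), from 2588 bp upstream of the TSS to 10588 bp downstream. The Dusp8 region measured 6878 bp (chromosome 7, 141645624 to 141652501), was centred on the TSS with 3480 bp upstream and 3397 bp downstream, and was wider than 6.45% of PHx regions. Sham regions came no closer than 20692 bp to the Dusp5 TSS and 31226 bp to that of Dusp8. In those stretches sham library 1 had 7 unlisted peak numbers and library 2 had 0 at Dusp5, and each sham library had 1 at Dusp8.

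Promoter sequences are given for these phosphatases and for Map3k6, Mapkapk5 and Map3k10 because they were marked in a single group, and for Dusp1 as the best known immediate early phosphatase, marked in both. Each window runs from 250 bases before to 50 after the RefSeq start, 5′ to 3′ on the gene's strand (RefSeq, GRCm38.p6, a build other than that of the regions). Searched on both strands were the cyclic AMP response element (CRE, TGACGTCA), AP-1 (TGANTCA), an ETS site (CCGGAAGT), the CArG box of serum response factor and the GC box (GGGCGG), and capitals mark every match but the GC box. A CRE and an AP-1 match can share no base, whereas some other pairs can share bases at their ends. The windows lie at chr19:53528895-53529194 (+, Dusp5), chr7:142095235-142095534 (-, Dusp8), chr17:26508423-26508722 (-, Dusp1), chr4:133240568-133240867 (+, Map3k6), chr5:121545843-121546142 (-, Mapkapk5) and chr7:27674532-27674831 (-, Map3k10).
Dusp5: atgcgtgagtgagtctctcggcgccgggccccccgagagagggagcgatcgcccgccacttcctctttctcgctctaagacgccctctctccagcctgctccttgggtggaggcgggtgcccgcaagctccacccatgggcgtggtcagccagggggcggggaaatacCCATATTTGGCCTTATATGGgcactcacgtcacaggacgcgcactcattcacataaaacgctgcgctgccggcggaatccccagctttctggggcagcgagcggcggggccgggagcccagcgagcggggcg
Dusp8: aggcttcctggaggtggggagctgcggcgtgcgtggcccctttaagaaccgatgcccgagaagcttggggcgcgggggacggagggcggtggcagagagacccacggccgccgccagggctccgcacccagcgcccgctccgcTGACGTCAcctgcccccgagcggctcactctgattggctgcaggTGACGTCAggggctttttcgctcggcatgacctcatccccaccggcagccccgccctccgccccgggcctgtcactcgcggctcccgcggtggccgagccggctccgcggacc
Dusp1: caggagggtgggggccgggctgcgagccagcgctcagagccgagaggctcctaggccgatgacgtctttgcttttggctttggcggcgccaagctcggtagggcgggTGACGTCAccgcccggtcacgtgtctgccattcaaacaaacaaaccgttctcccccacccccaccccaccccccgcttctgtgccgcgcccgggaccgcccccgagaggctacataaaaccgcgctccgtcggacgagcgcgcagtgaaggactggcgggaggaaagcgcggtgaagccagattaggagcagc
Map3k6: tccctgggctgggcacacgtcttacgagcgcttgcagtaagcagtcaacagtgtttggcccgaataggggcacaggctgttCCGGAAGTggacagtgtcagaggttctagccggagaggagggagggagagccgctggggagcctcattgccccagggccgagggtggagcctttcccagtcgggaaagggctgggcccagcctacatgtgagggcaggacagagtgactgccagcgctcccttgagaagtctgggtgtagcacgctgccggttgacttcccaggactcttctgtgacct
Mapkapk5: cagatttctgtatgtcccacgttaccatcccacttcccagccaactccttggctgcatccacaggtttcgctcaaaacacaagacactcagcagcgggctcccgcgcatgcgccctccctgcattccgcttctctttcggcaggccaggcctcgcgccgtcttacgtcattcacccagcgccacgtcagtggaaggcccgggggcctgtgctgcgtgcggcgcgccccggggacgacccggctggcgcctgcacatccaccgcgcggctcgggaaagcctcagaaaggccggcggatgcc
Map3k10: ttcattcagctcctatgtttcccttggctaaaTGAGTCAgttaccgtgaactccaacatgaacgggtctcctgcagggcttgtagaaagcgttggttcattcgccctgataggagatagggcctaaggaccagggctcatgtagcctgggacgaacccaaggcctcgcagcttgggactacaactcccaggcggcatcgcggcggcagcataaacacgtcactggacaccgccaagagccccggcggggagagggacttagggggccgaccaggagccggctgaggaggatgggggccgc

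The Dusp5 window held 2 CArG boxes side by side, at positions -82 to -73 and -72 to -63 from the start. Of 32851 promoter windows of the same length, 1.63% held a CArG box and 6 windows held at least 2. The Dusp8 window held 2 CREs, beginning at -107 and -63, and that of Dusp1 held 1, beginning at -143. A CRE stood in 1.79% of all windows, and 13 windows held at least 2. Of the 7 MAP kinase phosphatases with a window, 2 held a CRE, 1 a CArG box, 0 an AP-1 or ETS match and 6 a GC box, which 35.7% of all windows held. Of 25 kinases with a window, 0 held a CRE or CArG box, 2 an AP-1 match, among them Map3k10, 2 an ETS match, among them Map3k6, and 16 a GC box. An AP-1 match stood in 7.81% and an ETS match in 3.89% of all windows. The Mapkapk5 window held none of the 5 motifs. These matches describe the letters in the windows and do not show binding.

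Dusp1, the nuclear phosphatase of JNK and p38, had a region of 16362 bp after PHx and 13553 bp in sham, a ratio of 1.21. The region was shifted along the gene: it reached 8310 bp upstream and 8051 bp downstream of the TSS after PHx, against 10556 bp upstream and 2996 bp downstream in sham. Dusp4, another nuclear phosphatase, hardly differed, with 16774 bp after PHx and 16413 bp in sham. Dusp6, the cytoplasmic phosphatase of ERK, had 23060 bp after PHx and 17642 bp in sham, and its related gene Dusp7 had 24524 bp after PHx and 17334 bp in sham. At Dusp6 and Dusp7 the added length lay upstream (5184 and 7057 bp), with 234 and 133 bp added downstream.

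Dusp2 and Dusp10 had the largest ratios of the group. Dusp2, first known from activated lymphocytes, lay in a PHx region of 26002 bp that extended over the TSS of Astl and was assigned to it, against a sham region of 12035 bp (ratio 2.16). It gained 7894 bp upstream and 6073 bp downstream. Dusp10, which acts on JNK and p38, lay in a PHx region of 44810 bp and a sham region of 14080 bp (ratio 3.18), both assigned to its neighbour 1700056E22Rik. The PHx region took in 2 further sham regions inside Dusp10, at exon 3 and at a 3′ UTR, and against the joined 39713 bp the ratio was 1.13.

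**Figure D2:**
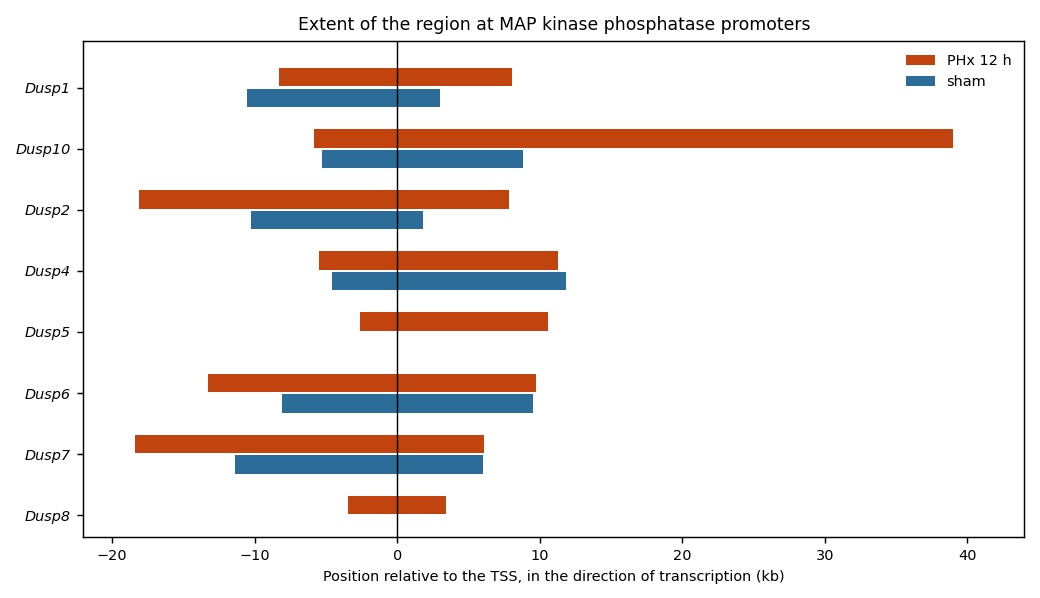
Extent of the region at each MAP kinase phosphatase promoter relative to the TSS (x axis, kb, positive in the direction of transcription); the upper bar of each pair is PHx 12 h and the lower bar sham. Dusp5 and Dusp8 have a PHx bar alone, Dusp10 reaches 38978 bp downstream after PHx, and the bars of Dusp4 nearly coincide.

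Of the other dual-specificity phosphatases, several of which act on substrates other than MAP kinases, 3 had regions narrower than the median of their table in both groups. Dusp11, an RNA phosphatase, had 4286 bp after PHx and 3019 bp in sham, Dusp12 had 8142 bp after PHx and 7017 bp in sham, and Dusp23 had 9798 bp after PHx and 7557 bp in sham. At Dusp13 the PHx region of 17448 bp covered the TSS, whereas the sham region of 7800 bp, assigned to Samd8, ended 752 bp short of it and was counted through the 1 kb window. Dusp14 had no promoter region in either group.

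Set against each other by their medians, the feedback phosphatases had wider regions than the kinases in both groups, and the kinases showed the larger ratio. Marked MAP kinase phosphatases had a median width of 19917 bp after PHx (8 genes) and 15247 bp in sham (6 genes), while marked kinases had 16215 bp after PHx and 7237 bp in sham (23 genes each). In sham all 6 marked phosphatases, from 12035 to 17642 bp, exceeded the median width of the table, as did 10 of 23 kinases. After PHx 6 of 8 phosphatases and 13 of 23 kinases exceeded it. Of all marked protein-coding genes 54.9% did so after PHx and 49.7% in sham.

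The median width ratio, PHx over sham, was 1.36 for the 6 phosphatases marked in both groups (range 1.02 to 3.18) and 1.62 for the 21 kinases (range 0.861 to 6.71), beside 1.72 for all 4682 protein-coding genes marked in both (quartiles 1.24 and 2.71). Of the 33 members marked in both groups 31 had a wider region after PHx, among them all 6 phosphatases and 19 of 21 kinases, beside 91.4% of protein-coding genes. A ratio over 2 was found in 2 of 6 phosphatases and 9 of 21 kinases, against 40.0% of protein-coding genes. Both medians lay between the quartiles of all genes. The median widths of the whole tables differed by a factor of 1.78, and relative to it both sets were narrower after PHx, at 0.763 for phosphatases and 0.907 for kinases. The median ratio of all protein-coding genes marked in both groups, 1.72, was below this factor as well. The difference between the sets was not tested, since genes of 1 list per group are not replicates.

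**Figure D3:**
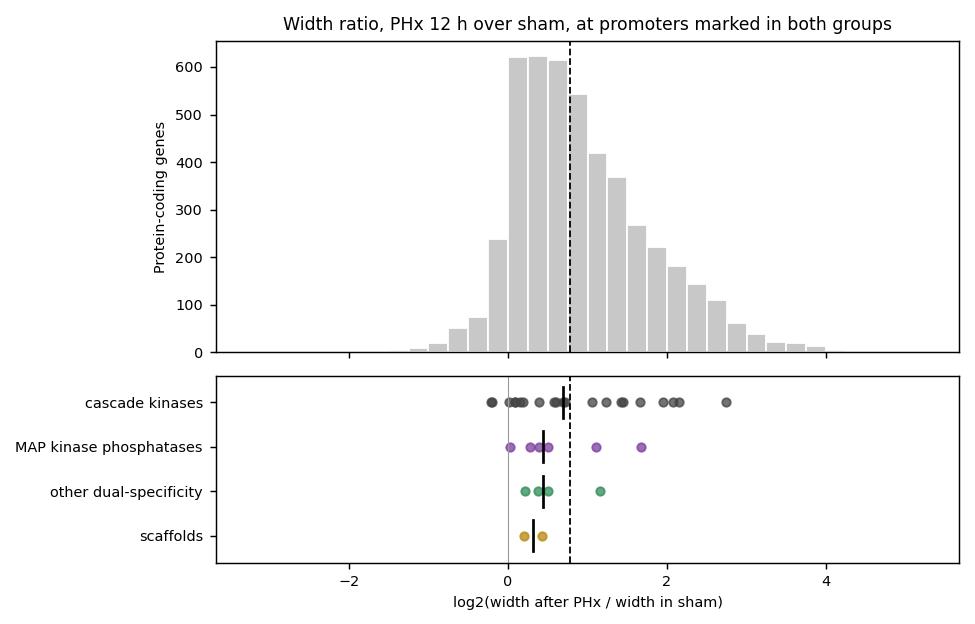
Upper panel, number of protein-coding genes (y axis) by log2 of width after PHx over width in sham (x axis); lower panel, the same ratio for each gene of 4 sets, with the median as a short bar. The dashed line is the median of all genes, a ratio of 1.72, and the medians of kinases (1.62) and MAP kinase phosphatases (1.36) lie to its left.

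Counting covered bases in a fixed window of 10 kb on each side of the TSS limits the weight of joined neighbours. By this measure the median of the 8 phosphatases was 15979 bp after PHx and 13593 bp in sham, and that of the 28 kinases 12818 bp after PHx and 6883 bp in sham, beside 12095 bp after PHx and 7368 bp in sham for all protein-coding genes. All 8 phosphatases had more covered length after PHx, by 133 bp at Dusp7 to 12589 bp at Dusp5, beside 76.2% of protein-coding genes. Dusp5 and Dusp8 entered the set through their PHx regions alone, so their direction is no separate result. Of the kinases 21 had more, 4 had less (Map3k10, Map2k1 and Map2k2 among them) and 3 had none in either group, where 18.2% of protein-coding genes had less. Map3k6 entered through its PHx region alone and Map3k10 through its sham region alone, so their directions are no separate result either. The median ratio over the 35 members with covered length in sham was 1.17, against 1.28 for 5921 protein-coding genes. At Mapk3 the window held 13099 bp after PHx and 11088 bp in sham, a far smaller difference than its region widths, whereas Map3k12 kept a wide gap with 14297 bp after PHx and 3208 bp in sham.

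**Figure D4:**
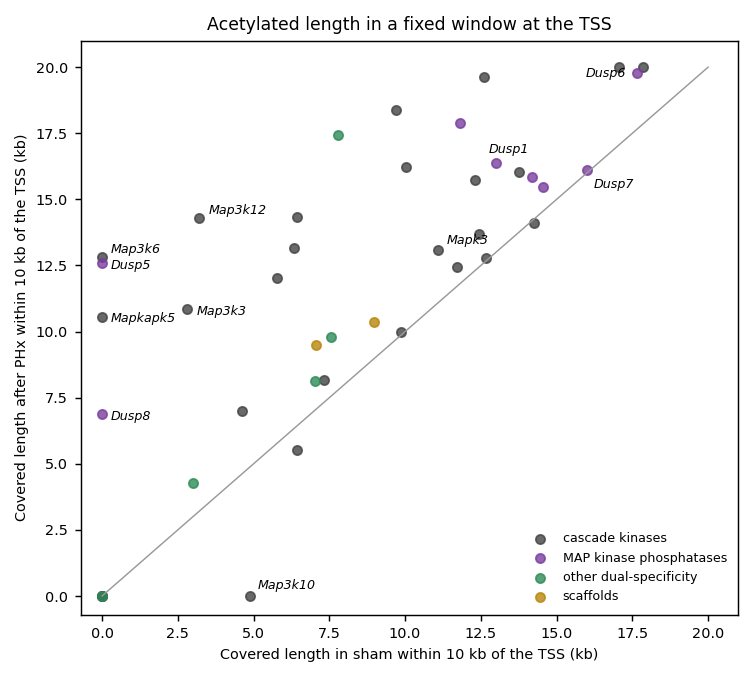
Bases covered by H3K27ac regions within 10 kb of the TSS after PHx (y axis, kb) and in sham (x axis, kb), 1 point per gene (1 kinase is not shown), coloured by set; the line marks equal values. Dusp5, Dusp8, Map3k6 and Mapkapk5 sit on the y axis, Map3k10 on the x axis, and the MAP kinase phosphatases other than Dusp5 and Dusp8 lie at the upper right.

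The authors' assignment, which names 1 gene per region, gave another picture of presence. Rows naming a member numbered 35 after PHx (34 genes) and 45 in sham (37 genes), with 28 genes named in both tables, 6 after PHx only and 9 in sham only. In all there were 10170 rows after PHx and 11602 in sham, and the split by gene name was not worked out for all genes. Of 37 members marked after PHx, 6 lay in a region that carried another gene's name (Mapk3, Map2k7, Map3k1, Mapkapk3, Dusp2 and Dusp10), where this held for 15.9% of marked protein-coding genes. In sham it held for 3 of 35 members (Map3k1, Dusp10 and Dusp13), against 4.37%. If a region at a TSS counted only for the gene it names, the promoters of Mapk3, Map2k7, Mapkapk3 and Dusp2 would count as sham only, although a PHx region covered each TSS. Map3k1, the gene of MEKK1, lay in regions of 27450 bp after PHx and 11638 bp in sham that were both assigned to Gm15327, and its PHx region took in a sham region in the first intron.

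Several of the large ratios came with joined regions. The PHx region overlapped several sham regions at 6 of the 33 members marked in both groups (Mapk3, Mapk14, Map3k1, Map3k13, Mapkapk3 and Dusp10), and a sham region overlapped several PHx regions at none of them. The median ratio of the 27 members with 1 to 1 regions was 1.31. With the sham widths summed over joined regions the median was 1.34 for kinases and 1.26 for phosphatases, against 1.40 for protein-coding genes. The upstream edge lay farther from the TSS after PHx at 27 of 33 members and the downstream edge at 28 of 33, with median gains of 1085 bp upstream and 1669 bp downstream. Joins and edges were not counted over all protein-coding genes, so these counts are not shown to be particular to the members. Of all protein-coding genes marked in both groups 91.4% had a wider region after PHx. Of the 37 PHx regions 32 were built from 1 peak per library, and so were 29 of the 35 sham regions.

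Distal regions, over 3 kb from the assigned TSS, named 4 members after PHx and 11 in sham (4 and 12 regions). Over all genes, distal regions were also fewer after PHx, with 2505 against 3738 in sham. Without any base shared with the other group were 2 of 4 PHx regions, beside 37.6% of all distal PHx regions, and 4 of 12 sham regions, beside 18.6%. The PHx regions lay in intron 2 of Map4k4, a kinase upstream of JNK (41050 bp, chromosome 1, 39954308 to 39995357), and in intron 2 of Map3k20, which encodes the ribotoxic stress kinase ZAK (17428 bp, chromosome 2, 72138585 to 72156012). They started 14235 and 10460 bp downstream of the TSS, with 197411 and 110134 bp between their edges and the closest sham region. Neither gene had a region at its listed TSS in either group. The RefSeq start of Map3k20 differed from the listed start by -12080 bp. It thus lay upstream of the listed start, farther from the PHx region, and was not assessed.

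The 4 sham regions without overlap were at Dusp14, Map2k3, Map2k5 and Map2k6. That of Dusp14 (7566 bp) lay in an exon of Synrg 35428 bp from the Dusp14 TSS, that of Map2k5 (4939 bp) in intron 3 of the gene, and that of Map2k3 (5294 bp) at a 3′ UTR, 4718 bp from the nearest PHx region. The other 8 sham distal regions shared bases with a PHx region. Among them were an intergenic region 9993 bp upstream of Mapk3 (4090 bp, against 8566 bp after PHx) and a region inside Map4k3 (11730 bp, against 17805 bp after PHx). That of Mapkapk5 (12566 bp) fell into a PHx region of 36563 bp assigned to Aldh2.

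Genes around the cascade are given from 3 lists. Of 27 receptor, adaptor and Ras or Raf level genes 15 had a TSS in the tables, with 14 of them marked in both groups, 1 in PHx only (Fgfr2, 29778 bp) and 0 in sham only. All 14 had the wider region after PHx, beside 91.4% of protein-coding genes marked in both groups. Their median ratio was 1.70, from 1.04 at Hras to 4.92 at Rras, beside 1.72 for those genes. The receptor genes Egfr and Met, whose ligands are hepatocyte mitogens, had 51626 and 31887 bp after PHx, against 28905 and 10505 bp in sham. Within 10 kb of the TSS these gaps were smaller. Egfr had 20001 covered bp in both groups, the full window, and Met had 12243 bp after PHx and 10505 bp in sham. Rras had 20001 bp after PHx and 16450 bp in sham by this measure. Ratios to joined sham lengths were not worked out for the 3 lists. Both Sos genes, which load Ras with GTP, were over 2-fold wider: Sos1 had 14027 bp after PHx and 6102 bp in sham, and Sos2 had 16636 bp after PHx and 6234 bp in sham. Within 10 kb of the TSS Sos1 had 13737 bp after PHx and 8052 bp in sham, and Sos2 kept its 16636 and 6234 bp. The receptor adaptor gene Grb2 (55695 bp after PHx and 47128 bp in sham) differed less, as did Ptpn11 (16105 bp after PHx and 14122 bp in sham).

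Of 13 other negative regulators with a TSS, of 22 listed, 12 were marked in both groups and Nf1, a Ras GTPase-activating protein gene, in PHx only (11454 bp). Among all protein-coding genes with a listed TSS these shares were 66.0% and 15.4%. Within 10 kb of the Nf1 TSS 11095 bp were covered after PHx and 5148 bp in sham. All 12 had the wider region after PHx, beside 91.4% of protein-coding genes marked in both groups. Their median ratio was 2.34, above the 1.36 of the MAP kinase phosphatases and the 1.72 of protein-coding genes. No test was made of this, and the 2.34 was not corrected for joined sham regions. Gadd45g and Gadd45b, stress-induced genes whose products are known to activate a MAP3 kinase and so are not inhibitors alone, had 41877 and 49635 bp after PHx, against 5780 and 14910 bp in sham. Within 10 kb of the TSS Gadd45g had 20001 covered bp after PHx and 5780 bp in sham. By this measure the gap at Gadd45b was smaller, with 15536 bp after PHx and 12382 bp in sham. Spred2, an inhibitor of Raf activation, had 76378 bp after PHx and 14047 bp in sham, yet within 10 kb of its TSS 11050 bp were covered after PHx and 14047 bp in sham. Errfi1, which encodes an inhibitor of the EGF receptor, had 33584 bp after PHx and 24675 bp in sham. Within 10 kb of its TSS Errfi1 had 20001 covered bp in both groups, the full window. No Sprouty gene had a listed TSS.

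Of 35 kinases and factors downstream of the MAP kinases 21 had a TSS, with 14 marked in both groups, 2 in PHx only (Elk3 and Ier3), 3 in sham only (Rps6ka4, Atf2 and Egr2) and 2 in neither (Ets1 and Etv4). Within 10 kb of the TSS sham regions covered 7087 bp at Ier3 and 0 bp at Elk3. All 14 had the wider region after PHx, beside 91.4% of protein-coding genes marked in both groups. Their median ratio was 1.66, beside 1.72 for those genes. The ETS factor genes Elk4 and Etv5 had 63485 and 12446 bp after PHx, against 11114 and 4307 bp in sham. The AP-1 genes Fos and Jun had 45453 and 14545 bp after PHx, against 12569 and 8720 bp in sham, and the stress factor gene Atf3 had 36270 bp after PHx and 7622 bp in sham. The sham-only regions at Rps6ka4 (6489 bp), Atf2 (3681 bp) and Egr2 (7570 bp) were all narrower than the median of the sham table, as was that at Map3k10 (4885 bp).

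**Figure D5:**
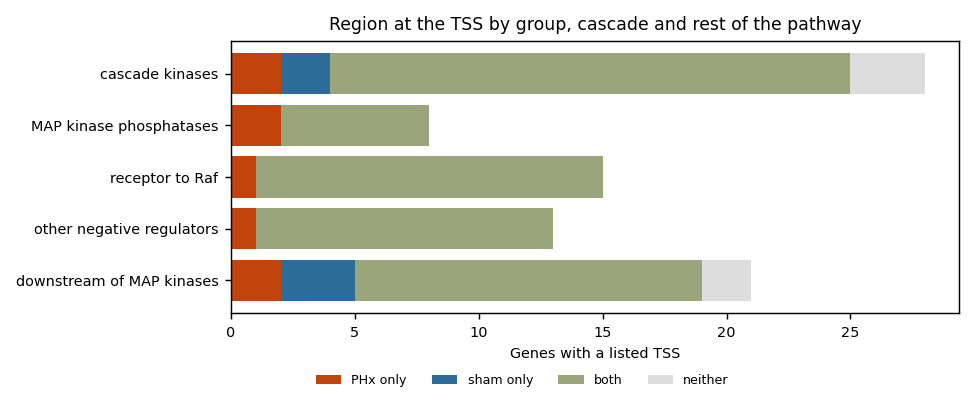
Number of genes with a listed TSS (x axis) by whether a region lay at the TSS in PHx only, sham only, both groups or neither, for the kinases, the MAP kinase phosphatases and 3 lists of pathway genes. Genes marked in both groups make up most of each bar, and sham-only genes occur among kinases (2) and downstream genes (3).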

How the data were processed

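Liver H3K27ac was profiled by CUT&Tag in 4 libraries, 2 per group. Bowtie2, ChIPseeker, DiffBind and SEACR and the builds GRCm39 and mm39 appear, per the submitters' processing notes, with neither versions nor roles; calling thresholds: not given in the sources used here. The columns deposited by the authors hold, per the file headers, region start, end and width in bp, annotation class, assigned gene with its coordinates, and distance to its TSS; the authors joined peaks of both libraries into each region. The tables give no other score, count or signal, so only presence, position and width were compared. A union of broader peaks gives wider regions and covers more TSSs.

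With Python 3.11.15 and pandas 2.3.3, a gene was taken as marked when a region overlapped TSS ± 1 kb, the TSS being the most upstream start listed in either table. The region covering the TSS, or else the nearest in the window, gave the width. Overlap means at least 1 shared bp. Biotypes and symbols came from a RefSeq table of GRCm38.p6 (264 names unmatched), used for names only. Interval code was tested on simulated regions. Peak numbers run in genomic order within a library, so numbers missing between neighbouring regions were counted as unlisted peaks. Promoter windows matched 38 of 43 genes; for 27, the start differed by at most 50 bp from the listed TSS after the shift of the 3 nearest neighbours, the printed ones among them.

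All members could be named; those marked in a single group, ERK, JNK, p38, MEK and MAP kinase phosphatase genes and the 3 largest and smallest ratios are given in full, except 1 sham-only kinase that enters the counts but is not reported here. Members, gene lists and motifs were chosen with earlier results of these data known. With 1 list per group no test was possible.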

Additional observations from a re-analysis of the deposited data

How the results depend on the processing

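Of 28 alternatives tried, 23 left counts and median ratios within 1.5 times of the reported value and on the same side of 1. By the authors' gene assignment, 6 members were in sham only in place of 2, because wide PHx regions carry a neighbour's name. Leaving out members in stretches with unlisted peak numbers of the other group, an alternative chosen after seeing the data, left 0 in PHx only and 0 in sham only. Dividing each width by the median of its own table turned both median ratios below 1, to 0.907 for kinases and 0.763 for MAP kinase phosphatases; this follows from the division by the ratio of table medians, 1.78. With a window of 500 bp, Dusp13 moved to PHx only, which then held 5 members. No paired analysis was possible because each group is 1 merged list without values per library, and for the same reason no library could be left out. The depth of the libraries is unknown, so narrow regions absent from a list, such as one at Map3k10 after PHx, cannot be told apart from regions below detection.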
